A study of Mus musculus with 4 samples.

Results

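The 10 genes described here encode transcription factors that drive or accompany the terminal differentiation of the epidermis: Klf4, Klf5, Klf6, Grhl1, Grhl3, Ovol1, Cebpa, Cebpb, Tfap2a and Znf750, the last written Zfp750 in mouse annotation. Their members were all probe sets annotated to exactly 1 gene with one of these symbols, which gave 21 probe sets of the 45037 on the array that are not controls, and 10 of the 18193 genes that had a probe set of their own. The induced mice carried K14-rtTA, TRE-miR-203 and K14-H2BGFP, and their control littermates, labelled WT, carried TRE-miR-203 and K14-H2BGFP without the activator; all were FVB pups that received doxycycline and were sampled at postnatal day 4, 24 h after the injection. The keratin 14 promoter, active in basal keratinocytes and the outer root sheath of hair follicles, drove both the doxycycline-dependent activator (rtTA) and the nuclear green fluorescent protein. Because the controls lacked the activator, an effect of the activator itself and one of miR-203 cannot be told apart. There were 2 induced and 2 control arrays, each from sorted skin cells labelled as a biological replicate, and nothing states how many pups each held or how the sorting gate was set. The comparison asks whether such regulators had changed a day after miR-203 was switched on.

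The epidermis renews itself from a basal layer of dividing keratinocytes, whose daughters move outward, make the keratins of the spinous layer, then the envelope proteins and barrier lipids of the granular layer, and finally die as cornified squames. A small network of transcription factors carries this programme. Zinc finger factors of the Krüppel-like and OVO families, Grainyhead-like factors, the leucine zipper C/EBP factors and AP-2 proteins act on overlapping sets of late genes, while p63 holds the basal state and also switches on several of these factors. miR-203, a microRNA abundant in the layers above the basal one, acts through pairing of its seed with messenger RNAs.

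The mature strand of the induced microRNA is shown because its seed, bases 2 to 8 in capitals, is what pairs with targets. RefSeq (GRCm38.p6) places it at chr12:112130927-112130948 on the plus strand.
mmu-miR-203-3p: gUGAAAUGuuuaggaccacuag
The analysed probe sets do not measure this strand, so its level in the 4 samples was not analysed here.

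The promoters of the 2 members with the highest test statistic, Klf6 and Grhl1, are shown. Each is the 250 bases before a RefSeq start site, the first listed for Grhl1, 5′ to 3′ on the strand of the gene. In GRCm38.p6 the Klf6 window is at chr13:5861239-5861488 and the Grhl1 window at chr12:24572037-24572286, both plus strand. Capitals mark the matches, on either strand, to 5 motifs: the GC box that Krüppel-like and Sp factors bind (GGGCGG), the Grainyhead core (AACCGG), a C/EBP half-site pair (TTGCNNAA), the AP-2 palindrome (GCCNNNGGC) and the CCAAT box (CCAAT).
Klf6: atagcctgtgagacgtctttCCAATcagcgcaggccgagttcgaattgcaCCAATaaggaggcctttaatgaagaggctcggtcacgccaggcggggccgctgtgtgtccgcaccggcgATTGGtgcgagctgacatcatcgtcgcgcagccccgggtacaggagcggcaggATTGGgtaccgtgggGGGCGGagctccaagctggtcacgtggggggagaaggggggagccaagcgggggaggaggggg
Grhl1: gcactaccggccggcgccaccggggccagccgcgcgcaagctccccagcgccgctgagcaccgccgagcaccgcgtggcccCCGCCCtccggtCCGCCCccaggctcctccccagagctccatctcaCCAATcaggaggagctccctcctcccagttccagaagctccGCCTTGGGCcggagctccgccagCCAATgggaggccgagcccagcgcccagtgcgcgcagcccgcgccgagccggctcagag

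The Klf6 window held 4 CCAAT boxes, 2 on each strand, and 1 GC box. The Grhl1 window shown held 2 CCAAT boxes, 2 GC boxes and 1 AP-2 match. Matches did not overlap in either window. Grhl1 had another RefSeq start site, whose window (chr12:24580469-24580718) held no match to any of the motifs. RefSeq promoters were available for 7 of the 10 members, with 9 start sites in all. A GC box was found in 7 of the 9 windows (6 of the 7 members), against 32.7% of all 32851 windows of this length. A CCAAT box was in 3 of the 9 (33.8% of all windows) and an AP-2 match in 2 (13.7%). Neither the Grainyhead nor the C/EBP letters occurred in any of the 9 windows, where 5.62% and 9.56% of all windows hold them. A match is a run of letters and not a measured site. The share of G and C in the 9 windows ran from 47.6% (one Tfap2a start site) to 81.6% (Cebpb).

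The cells carried the defining transcripts of keratinocytes. All 11 keratinocyte identity genes passed the filter on low values (mean log2 value of at least 4.17, the 40th percentile), with a mean log2 value over these genes of 12.6 on every array. Trp63 (-0.30 ± 0.09), Epcam (0.37 ± 0.12) and Krt5 (-0.17 ± 0.09) differed most between the groups on the log2 scale. The only other kept probe set of Epcam had the opposite sign. Pearson's r across the kept probe sets was 0.994 between the induced arrays and 0.995 between the controls, against 0.991 to 0.993 between groups. The Y-linked gene Eif2s3y set induced replicate 1 apart (9.38 there and 2.72 in induced replicate 2, against 2.82 and 2.52 in the controls). Xist had 5.86 there and 11.19 in induced replicate 2, against 10.57 and 10.80 in the controls. By these transcripts induced replicate 1 was wholly or mostly male and the other arrays female, though the labels give no sex. The medians of the lists below are therefore also given without induced replicate 1. No adjusted p under 0.05 was reached by any of the 13489 kept genes in limma, which is 0% of them, and 593 genes (4.40%) were higher and 705 (5.23%) lower in the induced arrays at an unadjusted p under 0.05.

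Of the 21 probe sets, 20 passed the filter, and the brightest kept one stands for each gene below. Of the 10 genes 9 had a higher mean in the induced arrays, where 49.6% of all kept genes did. Both induced arrays lay above both controls for 8 of the 10 genes, against 20.1% of all kept genes, and for 0 genes did both lie below. The median difference of the 10 genes, induced minus control, was 0.14 on the log2 scale, against -0.00 for all kept genes. The differences ran from -0.00 (Klf5) to 0.33 (Klf6), with 0.11 as the median of the 9 genes other than Klf6. None of the 10 had an adjusted p under 0.05, and 1, Klf6, had an unadjusted p under 0.05.

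**Figure D1:**
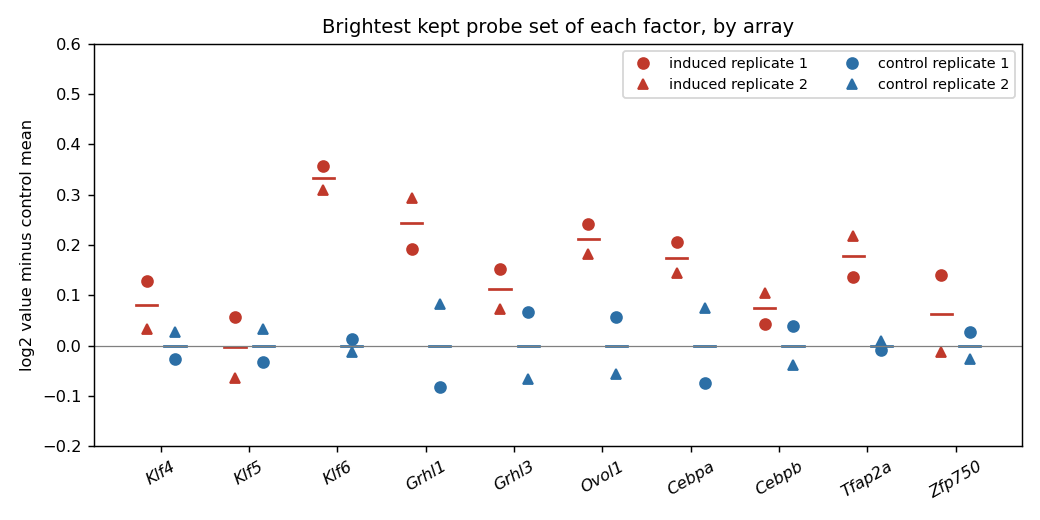
Log2 value of the brightest kept probe set of each factor on each array, less the mean of the 2 controls (y axis), with induced arrays in red on the left and control arrays in blue on the right of each pair and short bars for group means. Both induced arrays lie above both controls for all genes except Klf5 and Zfp750, by 0.30 for Klf6 and by under 0.13 for the others.

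The size of the gap between groups varied widely among these 8 genes. It was 0.30 log2 units for Klf6, 0.13 for Tfap2a, 0.13 for Ovol1, 0.11 for Grhl1 and 0.069 for Cebpa, and only 0.0062, 0.0054 and 0.0039 for Klf4, Grhl3 and Cebpb. For Klf6, Tfap2a and Ovol1 the gap was wider than the distance between the replicates of either group, a rule chosen after the values were seen, which 6.97% of all kept genes met in the same direction. When the arrays were centred on their medians, 6 of the 10 genes were separated, against 17.8% of all kept genes. Among the 10210 genes at or above the 60th percentile of level, where all 10 factors lie, 22.5% were separated in the same direction. That cut is a log2 value of 5.54, and the factors lie well above it, from 8.48 (Grhl3) to 12.65 (Klf4). The share is therefore not one of genes at a like level. The order of 2 arrays against 2 cannot by itself give a two-sided permutation p below 0.33.

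Krüppel-like factors bind GC-rich and CACCC sequences through zinc fingers at the end of the protein. Klf6, a member that cells induce quickly after injury and growth signals, differed most. Its brightest probe set had log2 values of 9.14 and 9.09 in the induced arrays, against 8.80 and 8.77 in the controls, a difference of 0.33 ± 0.09 (SE of the model, n = 2 and 2), which is 1.26-fold (95% interval 1.07 to 1.48; unadjusted p = 0.0131, adjusted p = 0.354 in limma). The 2 induced arrays were both high and the groups did not overlap. Klf6 had 5 kept probe sets and all 5 were separated in the same direction, with differences of 0.62 ± 0.11, 0.40 ± 0.10, 0.33 ± 0.09, 0.32 ± 0.10 and 0.24 ± 0.10.

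The largest of these, in the third brightest probe set, came with values of 8.72 and 8.53 in the induced arrays, against 8.04 and 7.96 in the controls (1.54-fold, 95% interval 1.27 to 1.86; adjusted p = 0.205 in limma). It ranked at 200 of the 27022 kept probe sets by absolute test statistic. The 2 dimmest (0.40 and 0.24) were drawn from the same sequence record, and their suffixes (s_at and x_at) mark probes that may also bind other transcripts, so the 5 are not independent measurements. Of the 345 genes with at least 5 kept probe sets, 8 (2.32%) had all of them separated upward in the induced arrays, Klf6 among them, and 4 had all separated downward. The chromosome position of Klf6 in RefSeq (GRCm38.p6) is chr13:5861489-5870393.

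**Figure D2:**
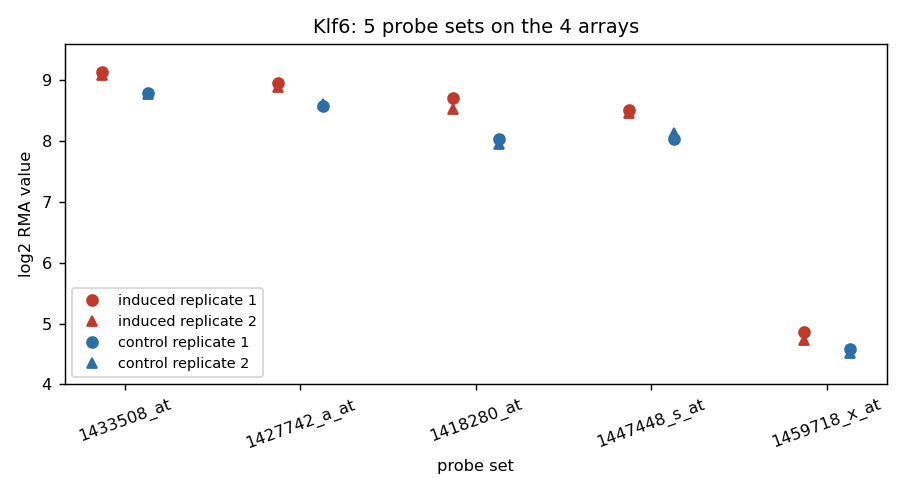
Log2 RMA values (y axis) of the 5 Klf6 probe sets (x axis, brightest on the left) in the 2 induced arrays (red, left of each pair) and the 2 control arrays (blue, right). Both induced values exceed both control values in every probe set, with 8.72 and 8.53 (induced) against 8.04 and 7.96 (control) in the one with the widest difference.

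Klf4 is needed in mice for the skin barrier to form. Its brightest probe set had log2 values of 12.74 and 12.65 in the induced arrays, against 12.59 and 12.64 in the controls (0.08 ± 0.10, 1.06-fold, 95% interval 0.893 to 1.25; adjusted p = 0.869 in limma). Induced replicate 2 lay barely above control replicate 2. The other probe set, from the same sequence record, had 11.98 and 11.86 against 11.71 and 11.77 (0.18 ± 0.10).

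Klf5, made mainly by proliferating epithelial cells, gave probe sets that disagreed. The brightest had 11.26 and 11.14 in the induced arrays, against 11.17 and 11.23 in the controls (-0.00 ± 0.10, 95% interval 0.838-fold to 1.19-fold), and the groups overlapped. A dimmer one had 7.63 and 7.29 in the induced arrays, against 6.98 and 7.26 in the controls (0.34 ± 0.16; adjusted p = 0.552 in limma), with induced replicate 1 as the high array and induced replicate 2 next to a control. The third, at 3.37 and 3.63 against 3.74 and 3.64, fell below the filter and was not tested. No direction can be given for this gene.

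The Grainyhead-like factors bind DNA as dimers and act on envelope cross-linking, cell adhesion and barrier genes. Grhl1, which in mice acts on desmosomal cadherin genes, had log2 values of 10.74 and 10.85 in the induced arrays, against 10.47 and 10.64 in the controls. Both induced arrays were higher, by 0.24 ± 0.11 in the mean (1.18-fold, 95% interval 0.981 to 1.43; adjusted p = 0.542 in limma), and control replicate 1 was the lowest array. Grhl3, required in mice for barrier formation and the transglutaminase Tgm1, had 8.57 and 8.49 in the induced arrays, against 8.49 and 8.35 in the controls (0.11 ± 0.10, 1.08-fold; adjusted p = 0.801). One induced and one control array were all but equal. Each of these genes had a single probe set, so the direction could not be checked against another.

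Ovol1, a zinc finger repressor that restrains proliferation as keratinocytes leave the basal layer and is also made in hair follicles, had log2 values of 9.40 and 9.34 in the induced arrays, against 9.22 and 9.10 in the controls. This was a difference of 0.21 ± 0.10 (1.16-fold, 95% interval 0.975 to 1.38; adjusted p = 0.561 in limma), with no overlap. The other probe set, from the same sequence record, overlapped, at 7.31 and 7.38 in the induced arrays, against 7.42 and 7.16 in the controls (0.06 ± 0.12).

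Cebpa and Cebpb encode C/EBP alpha and beta, which together help keratinocytes leave the cell cycle and start to differentiate in mice. Cebpa had log2 values of 10.59 and 10.53 in the induced arrays, against 10.31 and 10.46 in the controls (0.17 ± 0.10, 1.13-fold, 95% interval 0.944 to 1.35; adjusted p = 0.652 in limma). The groups did not overlap, and control replicate 1 lay well below the other 3. Cebpb had 11.28 and 11.34 in the induced arrays, against 11.28 and 11.20 in the controls (0.07 ± 0.10, 1.05-fold; adjusted p = 0.880), so that induced replicate 1 and control replicate 1 were nearly alike. Its other probe set overlapped, at 9.59 and 9.77 in the induced arrays, against 9.71 and 9.46 in the controls (0.10 ± 0.13).

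Both C/EBP genes are also made by fat cells, so adipocyte markers were read beside them. Of 9 markers 7 had a probe set of their own and 4 passed the filter, with a mean log2 value of 6.95 and 7.15 in the induced arrays, against 6.92 and 6.99 in the controls. The defining markers Adipoq and Lep fell below the filter. Fabp4, a fatty acid binding protein not confined to fat cells, differed by 1.08 ± 0.15, Lpl by -0.56 ± 0.20 and Adig by -0.18 ± 0.15, so the markers differed in sign.

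Tfap2a encodes AP-2 alpha, which acts on keratin and growth control genes in keratinocytes. Its brightest probe set had log2 values of 9.86 and 9.94 in the induced arrays, against 9.71 and 9.73 in the controls (0.18 ± 0.10, 1.13-fold, 95% interval 0.959 to 1.33; adjusted p = 0.615 in limma). All 3 of its probe sets were separated in the same direction, with differences of 0.18 ± 0.10, 0.18 ± 0.11 and 0.14 ± 0.10, and 2 of them came from the same sequence record. Zfp750, known in human keratinocytes as a target of p63 that switches on late genes, had 9.55 and 9.40 in the induced arrays, against 9.44 and 9.38 in the controls. It overlapped between groups (0.06 ± 0.10, 1.04-fold; adjusted p = 0.918), with only induced replicate 1 above both controls.

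**Figure D3:**
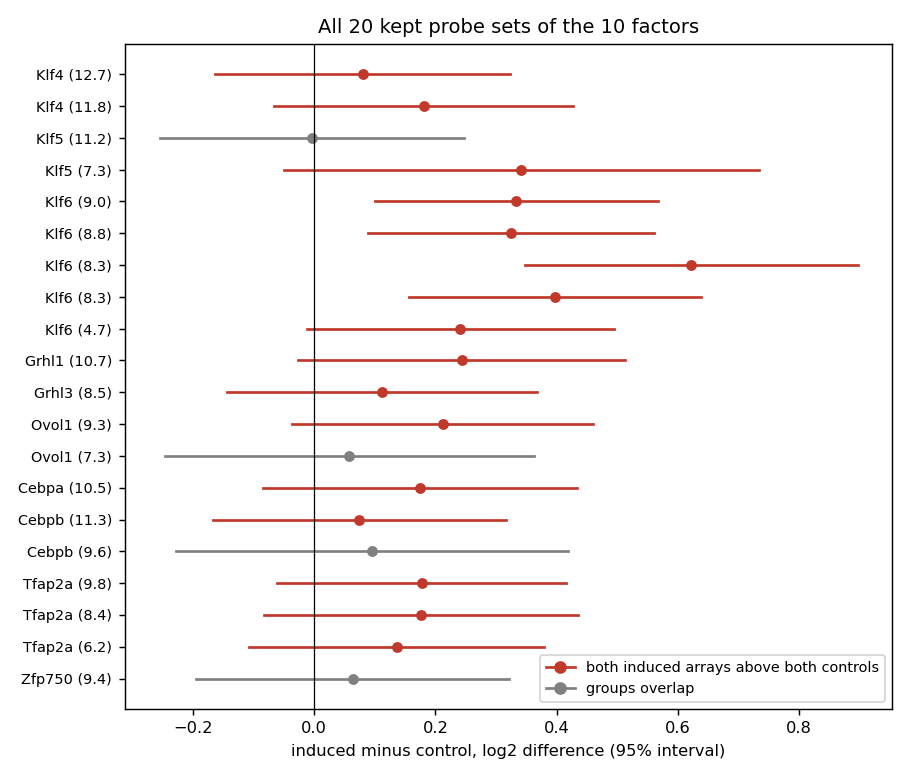
Difference in mean log2 value, induced minus control (x axis), with its 95% interval from limma, for the 20 kept probe sets of the 10 factors; the mean log2 value over the 4 arrays stands in parentheses after each gene. The points of 19 probe sets lie above 0, and the intervals of 4, all of Klf6, do not cross it before adjustment.

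Across the 20 kept probe sets, 19 had a higher induced mean and 16 were separated in that direction, against 20.9% of all kept probe sets. Without the 5 of Klf6, 14 of 15 were higher and 11 separated. An unadjusted p under 0.05 was reached by 4, all of Klf6, against 5.41% of all kept probe sets in that direction, and by 0 after adjustment, where the lowest adjusted p was 0.205. For the brightest probe set of each gene the 95% interval reached at most 1.48-fold (Klf6) and went down to 0.838-fold (Klf5), but among all 20 it reached 1.86-fold in the most changed probe set of Klf6 and 1.66-fold in the dimmer one of Klf5. RMA summaries tend to understate fold changes, and intervals from 2 arrays a group rest largely on the spread shared across probe sets.

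The mean log2 value over the 10 genes was 10.31 and 10.28 in the induced arrays, against 10.15 and 10.15 in the controls. Both induced arrays lay above both controls. Without induced replicate 1 the median difference of the 10 genes was 0.12, with Klf5 at -0.06 and Zfp750 at -0.01. The smaller differences depended on single arrays: Klf4 was at 0.03 without induced replicate 1 and 0.13 without induced replicate 2. Grhl3 was at 0.07 without induced replicate 1, 0.05 without control replicate 2 and 0.18 without control replicate 1. Cebpb was at 0.04 without induced replicate 2, 0.03 without control replicate 2 and 0.11 without control replicate 1. Without control replicate 1, Cebpa was at 0.10 and Grhl1 at 0.16. Klf6 stayed between 0.31 and 0.36 whichever array was left out, Ovol1 between 0.16 and 0.27 and Tfap2a between 0.14 and 0.22. In sorted cells measured in bulk, a different share of cells making a factor and a different amount of RNA per cell cannot be told apart.

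Relatives from the same families were read beside the 10 factors. Of 28 listed, 24 had a probe set of their own and 21 passed the filter, of which 15 had a higher mean and 6 a lower one, with a median difference of 0.11. At an unadjusted p under 0.05 there were 3 higher and 2 lower of the 21, against 4.40% and 5.23% of all kept genes, and 0 after adjustment. Klf15, a metabolic regulator of the same family, had 4.36 and 4.75 in the induced arrays, against 5.41 and 5.53 in the controls (-0.92 ± 0.15; adjusted p = 0.201 in limma), close to the filter level. Klf7 had 6.79 and 6.66 in the induced arrays, against 6.003 and 6.19 in the controls (0.63 ± 0.11), with its 3 other kept probe sets in the same direction. Klf2, a factor of blood vessel lining and immune cells, differed by 0.74 ± 0.19, where control replicate 1 (5.49) lay below control replicate 2 (6.01). The median of the list was 0.07 without induced replicate 1 and also 0.07 without control replicate 2.

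Other known regulators of epidermal differentiation gave a median of 0.12 over 31 kept genes of 35 listed, 23 higher and 8 lower. At an unadjusted p under 0.05 there were 4 higher and 2 lower of the 31, against 4.40% and 5.23% of all kept genes, and 0 after adjustment. Maf, a leucine zipper factor of late keratinocyte genes in human cells, had 9.65 and 9.92 in the induced arrays, against 8.98 and 9.06 in the controls (0.77 ± 0.12, 1.70-fold; adjusted p = 0.197 in limma). Among 4 other kept probe sets of Maf, 1 was lower in the induced arrays. Casz1, a zinc finger factor, differed by 0.38 ± 0.12. Trp63, the gene of p63, had 9.79 and 9.83 in the induced arrays, against 10.12 and 10.11 in the controls (-0.30 ± 0.09; adjusted p = 0.385), but 2 of 3 further kept probe sets of the gene were higher. The median of the list varied with single arrays, at 0.15 without induced replicate 1, 0.08 without induced replicate 2 and 0.07 without control replicate 2.

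The late genes on which these factors act were centred near 0. Some lay close to the highest log2 value on the arrays (14.61), such as Krtdap (mean over the 4 arrays 14.58) and Lor (14.25). Whether this limited their differences was not tested. Of 43 listed, 40 passed the filter, 23 with a higher and 17 with a lower mean and a median of 0.01. At an unadjusted p under 0.05 there were 4 higher and 0 lower of the 40 (4.40% and 5.23% of all kept genes), and 0 after adjustment. The median ran from -0.01 to 0.03 with an array left out and was 0.00 without induced replicate 1. The 3 with the largest statistic were the envelope precursor genes Sprr1a, at 12.39 and 12.49 in the induced arrays against 11.88 and 12.002 in the controls (0.50 ± 0.10), and Rptn (0.47 ± 0.10), and the tight junction gene Cldn4 (0.40 ± 0.10). The basal keratinocyte list had a median of -0.11 over 13 kept genes, 4 higher and 9 lower, with 3 lower and 0 higher at an unadjusted p under 0.05 (5.23% and 4.40% of all kept genes) and 0 after adjustment. Its median was -0.08 without induced replicate 1. The 3 were the hemidesmosomal collagen gene Col17a1 (-0.71 ± 0.11), the laminin gene Lama3 (-0.53 ± 0.12) and the keratin gene Krt15 (-0.33 ± 0.10).

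**Figure D4:**
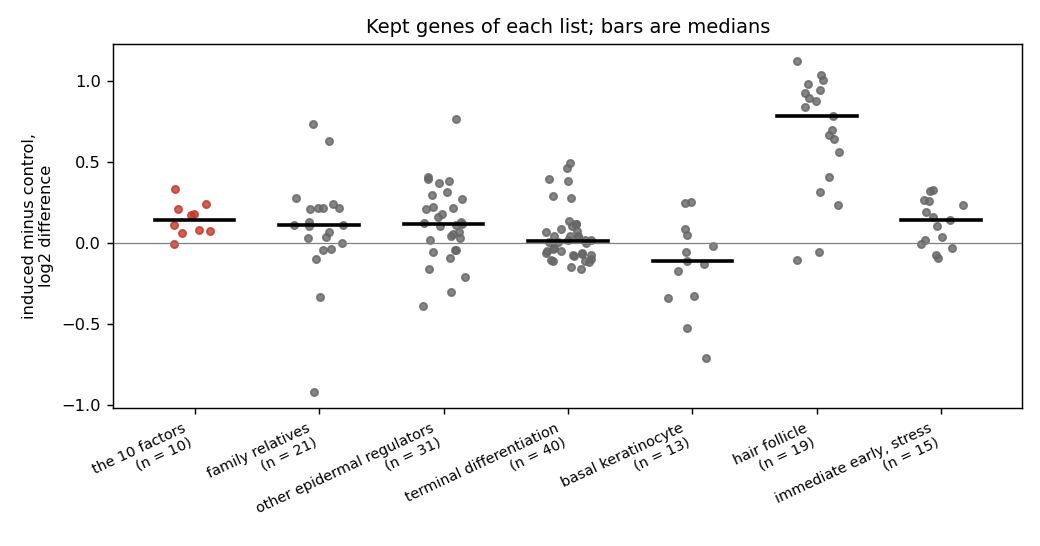
Difference in mean log2 value, induced minus control (y axis), of every kept gene in 7 lists, with each list's median as a black bar and the 10 factors in red on the left. The factors (median 0.14) sit in a narrow band, late differentiation genes centre at 0.01, basal genes at -0.11 and hair follicle genes at 0.79.

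Immediate early and dissociation stress genes were read beside Klf6, Klf4 and Cebpb, which respond to cell stress too. All 15 passed the filter, 11 of them with a higher mean in the induced arrays, 2 of these at an unadjusted p under 0.05 (4.40% of all kept genes), and the median was 0.14. The list's mean log2 value was 9.16 and 9.03 in the induced arrays, against 9.06 and 8.88 in the controls, so the groups overlapped. Junb differed by 0.33 ± 0.10, Zfp36 by 0.32 ± 0.11 and Btg2 by 0.27 ± 0.11. Without induced replicate 1 the median was 0.14, without control replicate 2 it was 0.03, and without control replicate 1 it was 0.23. Its part in the values of the 10 factors was not tested.

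Hair follicle markers mostly had higher means in the induced arrays. Of 19 kept, 17 were higher, 14 of these at an unadjusted p under 0.05 (4.40% of all kept genes) and 0 after adjustment, with a median of 0.79. The list's mean log2 value was 9.25 and 9.78 in the induced arrays, against 8.69 and 8.99 in the controls, and 0 of the 19 genes fell below the filter. Foxn1 differed by 0.79 ± 0.11, Padi3 by 1.01 ± 0.16 and Krt72 by 1.13 ± 0.20. The median was 0.95 without induced replicate 1, 0.54 without induced replicate 2 (15 of the 19 higher) and 1.02 without control replicate 2. Since Ovol1 and others of the 10 are also made in follicles, these values stand beside theirs, and their part in them was not tested.

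Markers of other cells gave medians closer to 0, several of which turned with a single array. The median was -0.05 for sebaceous gland (8 kept genes, 4 higher and 4 lower). The largest statistics there were those of Scd1 (-0.45 ± 0.13), Scd3 (-0.40 ± 0.13) and Far2 (-0.27 ± 0.12), and Mc5r went the other way (0.22 ± 0.10). The median was 0.18 for melanocytes (8 kept, 7 higher and 1 lower, Mitf 0.40 ± 0.13, Tyr 0.18 ± 0.12, Mlana 0.28 ± 0.25). For immune cells it was 0.05 (11 kept, Cd3g 0.58 ± 0.21, Csf1r 0.17 ± 0.15, Cd207 -0.25 ± 0.27). Of the 11 dermal fibroblast markers, Col1a1, Lum, Pdgfra and Dpt fell below the filter. For fibroblasts the median was -0.14 over 7 kept, 2 higher and 5 lower (Col1a2 -0.19 ± 0.16, Pdgfrb -0.14 ± 0.17, Thy1 -0.17 ± 0.22). For endothelium it was -0.11 over 4 kept of 8, with Pecam1, Cdh5, Tek and Emcn below the filter (Cldn5 -0.19 ± 0.10, Kdr -0.27 ± 0.16, Esam 0.07 ± 0.11). For adipocytes it was -0.07. Without induced replicate 1 the medians were 0.47 for melanocytes, 0.13 for sebaceous gland, 0.08 for fibroblasts, -0.14 for immune cells, -0.08 for endothelium and 0.04 for adipocytes. Without induced replicate 2 they were -0.12, -0.13, -0.39, 0.22, -0.12 and -0.18 in the same order. Without control replicate 1 they were 0.15, 0.02, -0.23, 0.17, -0.07 and -0.09, and without control replicate 2 they were 0.16, -0.11, 0.03, -0.05, -0.09 and -0.05. The part of these cells in the values of the 10 factors was not tested.

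Patterns most like those of the 3 members with the highest statistic were found by the Euclidean distance between centred log2 values over the 4 arrays, among 12795 other genes. For Klf6 these were Med12l (distance 0.019), Syt1 (0.030) and Adgrl3 (0.035). For Grhl1 they were Ccdc9 (0.019), Wipf2 (0.022) and Nrde2 (0.026), and for Ovol1 Agap1 (0.019), Sumf2 (0.022) and Artn (0.023). Med12l, for example, had 5.02 and 4.99 in the induced arrays, against 4.68 and 4.64 in the controls. With 4 arrays, such close patterns are easily found and describe only these arrays.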

How the data were processed

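Messenger RNA of 2 induced and 2 control samples was measured on 1 Affymetrix array each. The deposited log2 values were made by the authors with RMA, as the submitters' processing notes state with no version. RMA forces the probe values of the arrays to one distribution, which hides any change in total RNA. The medians of the deposited values still ran from 4.74 (control replicate 1) to 4.79 (control replicate 2). Of 45101 probe sets 64 controls were left out, and 0 columns of other samples were present. Names came from the platform annotation, updated through RefSeq (GRCm38.p6), which held the identifiers of 34741 of 34945 single-gene probe sets. Znf750 was matched as Zfp750.

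The 27022 probe sets whose mean log2 value reached its 40th percentile (4.17) were kept. Groups were compared with limma 3.58.1 in R 4.3.3 (lmFit, eBayes, two-sided, Benjamini-Hochberg over the 27022). The fit had 2 residual degrees of freedom, a prior SD of 0.115 and 3.82 prior degrees of freedom. It was checked only on data simulated from that same model, with differences larger than those of the members. Having only 4 arrays limits the precision. Differences are induced minus control log2 means with the SE of the model. Named were all members, the 3 genes of each list with the largest absolute statistic and the nearest patterns. The members and lists were chosen with earlier results of these data known. Alternatives were other filters, normalizations, variance priors and probe sets, a replicate block and leaving out each array.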

Additional observations from a re-analysis of the deposited data

How the results depend on the processing

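None of the 10 factors passed an adjusted p under 0.05 in limma under any of the 12 alternatives run. With a variance prior that follows the level and is robust to outliers, 81 genes passed, 0 of them members, and 3 members (Klf6, Grhl1 and Ovol1) had an unadjusted p under 0.05. Maf, Sprr1a, Col17a1, Fabp4 and 5 hair follicle genes of the lists passed there. The shares of all kept genes with an unadjusted p under 0.05 under the alternatives are not given here. With the dimmest kept probe set for each gene 0 members had an unadjusted p under 0.05. Leaving out each array in turn gave a median of 0.12 to 0.15. In the main fit, counting only gaps wider than the ranges within both groups, chosen after seeing the data, left 3 members separated. The sign of Klf5 turned when the values were quantile normalized again (0.0018), with the mean of its probe sets (0.17) and with its dimmest kept one (0.34), and ran from -0.065 to 0.057 with an array left out; Zfp750 ran from -0.013 to 0.14 there. The other 8 factors had the same sign in all 12, Klf6 at 0.24 to 0.38 with adjusted p of 0.191 to 0.739. Of these 8, Klf4, Grhl1, Grhl3, Cebpa and Cebpb moved by over 1.5 times when 1 array was left out (to 0.03, 0.16, 0.05, 0.10 and 0.03 at the lowest). The labels do not say that a replicate number marks a litter, and replicate 1 deviations in the 2 groups correlated at r = -0.10 across probe sets. With the replicate block 0 members passed, 1 had an unadjusted p under 0.05 and the median stayed 0.14. Fits with an array left out take the spread of the single array from the other group. Signal over background was not in the files used here.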
